A study of Homo sapiens with 6 samples.

Results

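The 8 genes described here encode receptors that sort proteins between the endoplasmic reticulum (ER) and the Golgi: the KDEL receptors KDELR1, KDELR2 and KDELR3, the mannose-binding lectins LMAN1, LMAN2 and LMAN2L, the LMAN1 partner MCFD2, and SURF4. They were taken by symbol from the deposited table of 58825 human genes. All 8 were found, no symbol was repeated, and all 8 passed the filter on low counts that left 19200 genes to test. RNA was profiled in PANC-1, an established line from a human pancreatic ductal carcinoma, in 2 groups of 3 libraries each: cells given 8 µM of a compound labelled CMR for 48 h, and cells labelled control. The treatment of the control cells, the full name of CMR and the number of separate cultures are not given in the labels, so p-values here cover no more than the spread between libraries, which may be technical. PANC-1 is a single line, and in RNA from whole cultures more mRNA per cell and more cells of a kind cannot be told apart.

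Proteins of the ER lumen that leak forward carry a short C-terminal tail, KDEL or a close variant. KDEL receptors bind that tail in the acidic Golgi and carry the protein back in vesicles coated with COPI, releasing it in the neutral ER. Traffic in the other direction uses receptors that collect finished cargo at ER exit sites: LMAN1 (also called ERGIC-53) binds high-mannose glycans and, with the calcium-binding protein MCFD2, carries blood clotting factors and some proteases. LMAN2 and LMAN2L are related lectins of the early secretory pathway, and SURF4 is a membrane receptor that loads soluble cargo, lipoproteins among it. Several genes of this pathway are known targets of the ER stress transcription factors XBP1 and ATF6.

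Promoters were read beside the expression values because these factors bind known short motifs. RefSeq promoter sequences on build GRCh38.p14, from 250 bases before to 50 after each start, were matched for 7 of the 8 genes; KDELR2 was not matched. The 250 bases before the start are shown for KDELR3, the gene with the largest rise, for its paralog KDELR1, which was not called, and for the risen genes SURF4 and MCFD2 (for MCFD2 the last of its 3 listed starts), 5′ to 3′ on the gene's strand. Capitals mark every match, on either strand, to the motifs named after the sequences.
KDELR3, plus strand, chr22:38467846-38468095: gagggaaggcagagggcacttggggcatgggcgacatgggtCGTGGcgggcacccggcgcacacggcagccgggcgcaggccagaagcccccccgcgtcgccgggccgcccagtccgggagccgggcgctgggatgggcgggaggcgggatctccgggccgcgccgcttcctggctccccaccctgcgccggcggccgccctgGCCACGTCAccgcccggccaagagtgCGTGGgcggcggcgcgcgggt
KDELR1, minus strand, chr19:48391552-48391801: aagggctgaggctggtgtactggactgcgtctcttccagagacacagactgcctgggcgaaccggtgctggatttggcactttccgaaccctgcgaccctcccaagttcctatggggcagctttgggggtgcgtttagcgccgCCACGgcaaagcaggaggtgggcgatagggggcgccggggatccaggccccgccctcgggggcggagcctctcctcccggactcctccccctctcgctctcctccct
SURF4, minus strand, chr9:133376061-133376310: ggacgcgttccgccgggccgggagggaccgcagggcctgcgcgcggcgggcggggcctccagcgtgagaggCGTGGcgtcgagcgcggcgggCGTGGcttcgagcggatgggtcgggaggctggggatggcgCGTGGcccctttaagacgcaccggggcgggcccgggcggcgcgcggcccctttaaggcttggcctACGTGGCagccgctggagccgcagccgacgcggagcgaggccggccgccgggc
MCFD2, minus strand, chr2:46915807-46916056: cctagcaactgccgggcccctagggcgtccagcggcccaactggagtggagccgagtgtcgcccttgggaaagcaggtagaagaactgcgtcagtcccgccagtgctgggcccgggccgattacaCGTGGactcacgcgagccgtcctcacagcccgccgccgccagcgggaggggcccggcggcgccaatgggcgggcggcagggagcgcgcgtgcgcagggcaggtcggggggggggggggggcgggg

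The unfolded protein response element, TGACGTGG, was found in 1 of the 7 matched members, KDELR3. There it lies on the reverse strand with its leftmost base 46 bases before the start. It is in 0.927% of the 27305 genes with a listed promoter. The Golgi stress element, ACGTGGC, was found in KDELR3, where it overlaps that element, and in SURF4, 53 bases before the start. It is in 3.95% of genes. The same letters of KDELR3 also match the antioxidant element TGACNNNGC, which is in 16.1% of genes. The short core CCACG, part of each ER stress motif, was found in KDELR1, KDELR3, LMAN1, MCFD2 and SURF4, and is in 42.1% of genes. In MCFD2 it was found at each of the 3 listed starts, of which only the last is shown. These starts lie inside the deposited gene span, whose 5′ end is base 46941855. None of the 7 matched members held the full ER stress element, CCAAT and CCACG with 9 bases between them (0.0916% of genes). The same was true of its second form, ATTGG and CCACG with 1 base between them (0.0696%). Nor did they hold the amino acid response motifs TGATGCAAT (0.293%) and TTGCATCA (1.08%). KDELR2 was not read. A match is a description of letters in this window and is not evidence of binding.

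Library totals ran from 51147268 to 70129221 counts, 3 CMR libraries of 66460535 or more and 3 control libraries of 63811430 or fewer. Transcripts of the mitochondrial genome took 4.40 to 4.93% of counts with CMR and 5.76 to 5.93% in control; their part in the results was not tested. The keratin genes KRT8, KRT18 and KRT19 and the vimentin gene VIM, which PANC-1 is known to express, were detected in every library, but lower with CMR and without overlap. KRT8 was at 29.1 to 57.5 FPKM with CMR and 158 to 190.4 in control, KRT18 at 77.6 to 149 and 175 to 241, KRT19 at 37.5 to 63.7 and 259 to 265, and VIM at 188 to 262 and 617 to 632. The other epithelial markers overlapped between the groups, CDH1 at 1.41 to 5.54 FPKM with CMR and 3.85 to 8.69 in control and EPCAM at 6.44 to 10.9 and 6.01 to 9.56. The part of these marker differences in the receptor results was not tested. FPKM are fragments per kilobase of gene length, scaled to library depth. The 23 markers of 7 other cell types (pancreatic acini and islets, adipose tissue, fibroblasts, leukocytes, endothelium and red cells) were at 0.807 FPKM or less in every library; adipocyte genes were among them because the protocol text mentions adipose.

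With CMR, 5 of the 8 receptor genes rose: KDELR3 4.63-fold, MCFD2 3.10-fold, KDELR2 2.65-fold, LMAN1 2.06-fold and SURF4 1.62-fold. None fell. KDELR1, LMAN2 and LMAN2L, with fitted folds of 1.18, 1.22 and 1.29, were not called. A call was an adjusted p under 0.05 in the quasi-likelihood test of edgeR, adjusted by Benjamini-Hochberg over all 19200 genes. By that rule 20.5% of all tested genes were higher and 18.1% lower, and among the 6477 genes that averaged 5 FPKM or more the shares were 32.5% and 24.1%. The median log2 fold change was 0.87 over the 8 members and -0.01 over all tested genes. The members were chosen with earlier results of these data known, so their counts and median are not those of a blind choice. In 7 of the 8 every CMR library exceeded every control library, which held for 27.3% of all tested genes. The exception was LMAN2L. That share was not computed among genes averaging 5 FPKM or more, which include all 8 members and were called more often.

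**Figure D1:**
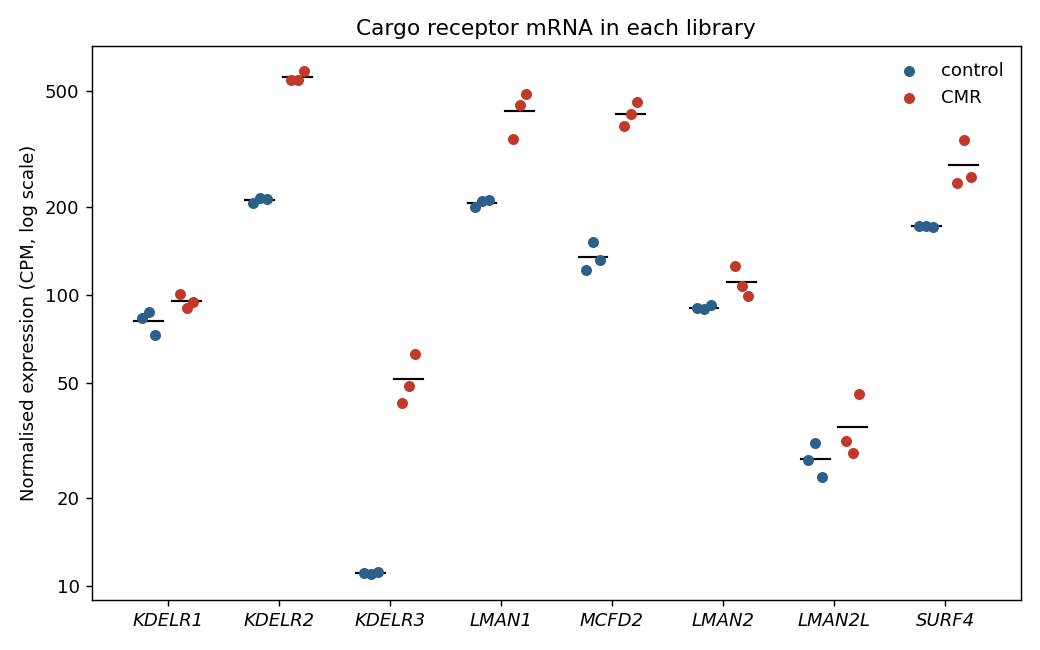
Normalised expression (CPM, log axis) of the 8 receptor genes in each library; points are libraries, 3 control and 3 CMR, and short lines are group means. KDELR3 lies near 11 CPM in control and from 42.7 to 62.6 with CMR, while the groups of LMAN2L overlap.

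KDELR3 (ENSG00000100196, chromosome 22, 38468078 to 38483447, plus strand) had the lowest control level of the 8 genes. Its normalised expression, in counts scaled to library size (CPM), was 42.7, 48.6 and 62.6 in CMR replicates 1, 2 and 3 and 11.1, 11.0 and 11.1 in the control replicates. The lowest CMR library was thus far above a control group in which the libraries hardly differed. Group means were 51.3 ± 10.2 with CMR and 11.1 ± 0.101 in control (SD, n = 3), which gave 2.21 ± 0.16 (SE) as log2 fold change (edgeR adjusted p = 0.000145). Among all tested genes it ranked 575 by log2 fold change. Its span overlaps that of DDX17, an RNA helicase gene on the opposite strand whose mean count was 1246% of that of KDELR3. The annotated exons share 8 bases, 0.421% of the exon bases of KDELR3, and DDX17 had a log2 fold change of -0.55.

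KDELR2 (ENSG00000136240, chromosome 7, 6445953 to 6484190, minus strand) was the most abundant of the KDEL receptor genes in both groups. It measured 546, 547 and 587 CPM in the CMR libraries and 207, 214 and 213 in control. Both groups were tight and far apart. Means were 560 ± 23.4 and 212 ± 4.19 (SD, n = 3), and the log2 fold change was 1.40 ± 0.07 (edgeR adjusted p = 4.9e-05), the smallest p of the 8 genes. The neighbouring lipase gene DAGLB, on the same strand, has an overlapping span and had 6.81% of the mean count of KDELR2. The annotated exons share 224 bases, 7.77% of the exon bases of KDELR2. DAGLB had a log2 fold change of 0.55 and was not called.

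KDELR1 (ENSG00000105438, chromosome 19, 48382575 to 48391551, minus strand), the third KDEL receptor gene, measured 101, 89.8 and 94.8 CPM with CMR and 83.0, 87.2 and 72.9 in control. The groups did not overlap, but only by the gap between 87.2 and 89.8. The log2 fold change was 0.23 ± 0.10, with a 95% interval from -0.0037 to 0.47 (edgeR adjusted p = 0.110), so a rise of up to 1.38-fold is within the interval.

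Within the KDEL receptor family the make-up of the mRNA pool differed between the groups, measured per length as shares of summed FPKM. KDELR1 made up 21.8, 19.6 and 18.8% in the CMR libraries and 38.8, 39.2 and 35.1% in control. KDELR2 went from 56.3 ± 2.05% in control to 67.3 ± 0.722% with CMR, and KDELR3 from 6.04 ± 0.264% to 12.6 ± 1.89% (SD, n = 3). The summed level of the 3 genes was 82.3, 85.7 and 79.7 FPKM in the control libraries and 172, 167 and 180.4 with CMR. For each of these quantities the groups did not overlap, and the exact permutation test over samples (two-sided) gave p = 0.1, the smallest that 3 against 3 libraries can give.

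The difference between paralogs was also compared as a log2 ratio of normalised CPM within each library. KDELR2 over KDELR1 was 2.43, 2.61 and 2.63 with CMR and 1.32, 1.30 and 1.55 in control, a difference of 1.17. KDELR3 over KDELR1 differed by 1.96 and KDELR3 over KDELR2 by 0.79. In all 3 pairs every CMR library lay above every control library. Over the 6 pairs of receptor genes compared in this way, the exact permutation p was 0.1 for 5 pairs, the lowest the design allows. After Benjamini-Hochberg adjustment over the 6 pairs, the exact permutation p of those 5 was 0.12. Several pairs share a gene, and the ratios largely restate the fold changes of the single genes. The 5 pairs are thus not separate findings. How often the groups are apart for other pairs of genes was not computed.

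**Figure D2:**
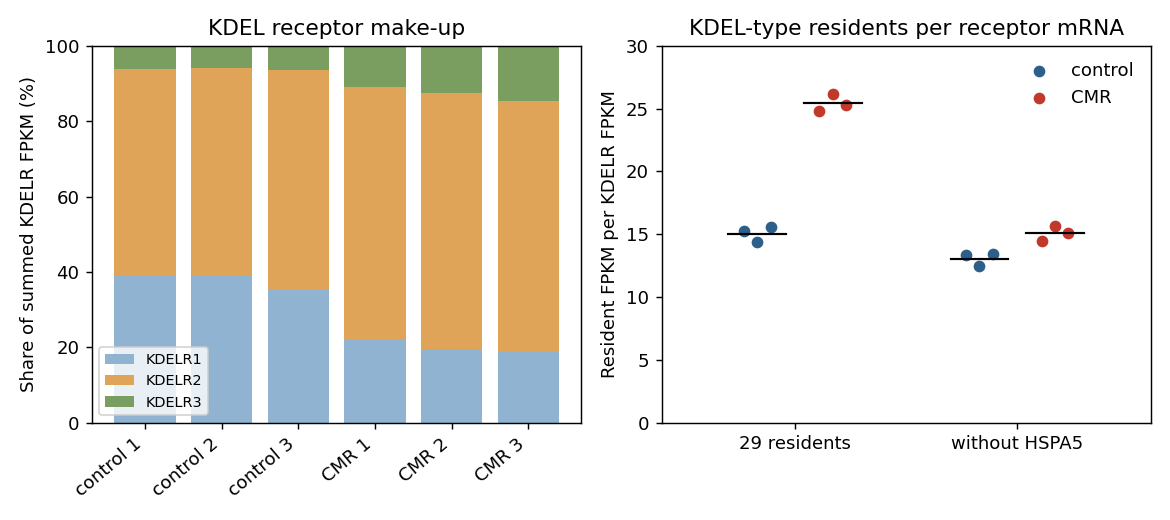
Left, the share (%) of the summed FPKM of KDELR1, KDELR2 and KDELR3 held by each gene, 1 bar per library; right, the summed FPKM of 29 ER residents with a KDEL-type tail divided by that of the KDEL receptors, with and without HSPA5, 1 point per library and lines at group means. KDELR1 holds 35.1% or more in the control libraries and 21.8% or less with CMR.

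The proteins these receptors retrieve were read from a list of 29 ER residents known to carry a KDEL-type tail. That list was written by hand with results of these data known, and HSPA5, the main chaperone of the ER lumen, and other strongly risen genes in it were known to have risen. Of the 29, 21 rose, 3 fell and 5 were not called, with a median log2 fold change of 1.35, beside 20.5% higher and 18.1% lower among all tested genes. The largest rises were in HSPA5 (11.5-fold), the chaperone gene HYOU1 (8.61-fold), the secreted ER stress factor gene MANF (4.29-fold) and SDF2L1, which acts with HSPA5 (4.04-fold). The members that fell were COLGALT1, a collagen galactosyltransferase gene (log2 fold change -0.61), AGR2, a disulfide isomerase of mucus-making cells (-0.58), and RCN2, a calcium-binding protein gene (-0.35).

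Summed over the list, the residents held 24.8, 26.2 and 25.3 FPKM per FPKM of KDEL receptor mRNA in the CMR libraries and 15.2, 14.4 and 15.6 in control. Both groups were narrow and did not overlap (exact permutation p = 0.1). HSPA5 alone was 40.7 ± 0.820% of the residents' FPKM with CMR and 13.2 ± 0.764% in control (SD, n = 3). Without it the ratio was 15.1 ± 0.606 with CMR and 13.1 ± 0.511 in control. Those groups also did not overlap (lowest CMR library 14.5, highest control library 13.4; exact permutation p = 0.1). The list was written with strong rises in it known. A higher ratio was thus partly fixed by that choice, and these p-values add no support.

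LMAN1 (ENSG00000074695, chromosome 18, 59327823 to 59359265, minus strand) measured 343, 450 and 490 CPM in the CMR libraries and 201, 211 and 211 in control. CMR replicate 1 was the lowest of its group and still above all control libraries. The log2 fold change was 1.04 ± 0.13 (edgeR adjusted p = 0.00107). MCFD2 (ENSG00000180398, chromosome 2, 46901870 to 46941855, minus strand), whose protein forms the cargo-binding complex with LMAN1, measured 379, 418 and 461 with CMR and 121, 152 and 132 in control. Its groups lay further apart than those of LMAN1, and its log2 fold change was 1.63 ± 0.12 (edgeR adjusted p = 0.000138). The TTC7A gene on the opposite strand overlaps its span and had 5.06% of its mean count. Exons shared with TTC7A were 3.2% of the exon bases of MCFD2. The gene AC016722, also on the opposite strand, overlaps the span too. It had 0.484% of the mean count of MCFD2 and a log2 fold change of 1.73. Exons annotated under that name share 3.33% of the exon bases of MCFD2. The name was read without its suffix, so these exons may belong to more than 1 gene.

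The balance of the 2 partners differed between the groups. Per length, LMAN1 stood at 0.895, 1.06 and 1.05 FPKM per FPKM of MCFD2 with CMR and at 1.63, 1.37 and 1.58 in control. The 2 mRNAs were thus close to equal in the CMR libraries, and LMAN1 was the more abundant in each control library. On the log2 CPM scale the MCFD2 over LMAN1 ratio differed by 0.61, without overlap of the groups (exact permutation p = 0.1).

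The other lectin genes were not called. LMAN2 (ENSG00000169223, chromosome 5, 177331567 to 177351668, minus strand) measured 125, 107 and 99.0 CPM with CMR and 89.9, 89.1 and 92.0 in control. All CMR libraries were above all control libraries, the nearest by 99.0 against 92.0. Its log2 fold change was 0.29 ± 0.11 (95% interval 0.04 to 0.54, edgeR adjusted p = 0.0651), and it passed the threshold in 3 of 17 alternatives. LMAN2L (ENSG00000114988, chromosome 2, 96705929 to 96740064, minus strand) measured 31.4, 28.6 and 45.7 with CMR and 27.1, 31.0 and 23.7 in control. Here 1 library, CMR replicate 3, stood above the rest and the other libraries of both groups interleaved. The log2 fold change was 0.37 ± 0.20 (95% interval -0.10 to 0.84, edgeR adjusted p = 0.193), and 0.13 without CMR replicate 3.

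Among the 3 lectin genes LMAN2 was the largest by summed FPKM in every control library (47.1 to 49.4%). LMAN1 held 39.8 ± 0.662% in control and 52.2 ± 6.33% with CMR (SD, n = 3). In CMR replicate 1 LMAN1 (44.9%) and LMAN2 (45.9%) were close, and in the other 2 CMR libraries LMAN1 was the larger. The log2 CPM ratio of LMAN2 over LMAN1 was lower with CMR by 0.74 (difference -0.74, exact permutation p = 0.1), without overlap. For LMAN2L over LMAN2 the difference was 0.06, with SDs of 0.48 and 0.22, and the groups overlapped (exact permutation p = 0.9).

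**Figure D3:**
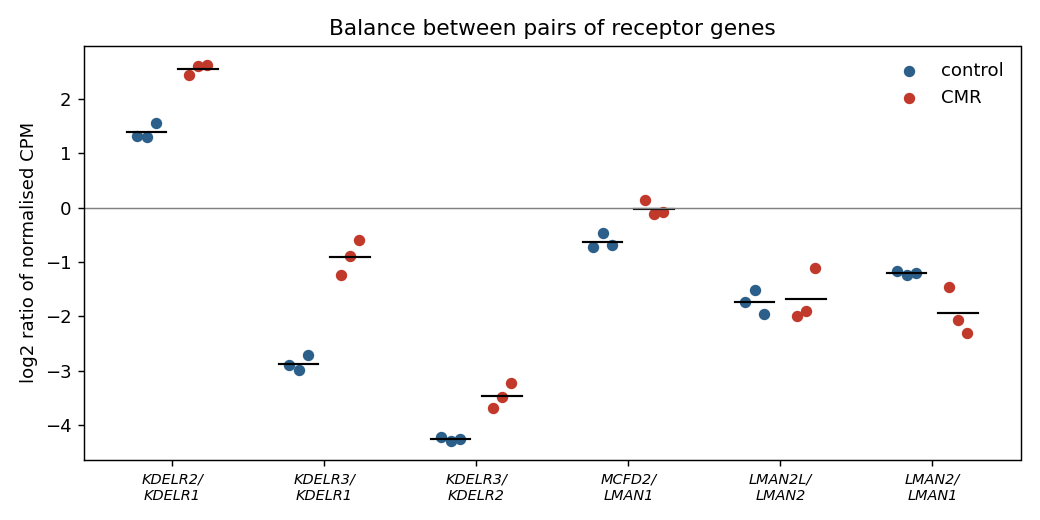
Log2 ratio of normalised CPM for 6 pairs of receptor genes in each library; points are libraries, lines are group means, and 0 is an equal number of normalised counts. In 5 pairs the groups are apart, while LMAN2L over LMAN2 overlaps.

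SURF4 (ENSG00000148248, chromosome 9, 133361450 to 133376166, minus strand) measured 242, 341 and 254 CPM with CMR and 173, 172 and 172 in control. CMR replicate 2 stood above the other 2 CMR libraries, and all 3 were above control. The log2 fold change was 0.70 ± 0.13 (edgeR adjusted p = 0.00610). Without CMR replicate 2 it was 0.53 (edgeR adjusted p = 0.00626).

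**Figure D4:**
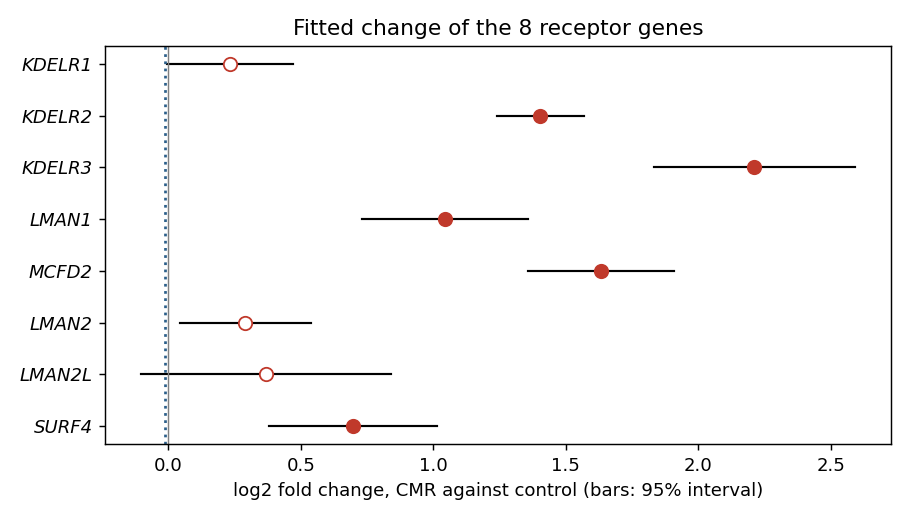
Fitted log2 fold change of each receptor gene, CMR against control, with its 95% interval; filled points passed the adjusted threshold, the dotted line is the median of all tested genes. The intervals of KDELR1 and LMAN2L include 0, and that of KDELR3 starts at 1.83.

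Ordered by FPKM, the control cells held KDELR2 (46.4 ± 0.920), SURF4 (43.1 ± 0.230), LMAN2 (35.9 ± 0.500), KDELR1 (31.2 ± 2.89), LMAN1 (29.5 ± 0.829), MCFD2 (19.4 ± 2.30), LMAN2L (8.67 ± 1.18) and KDELR3 (4.98 ± 0.0413; SD, n = 3). In that order only the neighbours KDELR1 and LMAN1 overlapped between libraries. With CMR the order was KDELR2 (116 ± 3.45), SURF4 (66.1 ± 12.5), LMAN1 (57.5 ± 9.22), MCFD2 (57.1 ± 4.58), LMAN2 (41.7 ± 5.90), KDELR1 (34.7 ± 2.55), KDELR3 (21.9 ± 3.99) and LMAN2L (10.6 ± 2.61). SURF4, LMAN1 and MCFD2 overlapped one another there, as did LMAN2 with LMAN1 and with KDELR1, so their order is not resolved. All 8 genes together summed to 219 ± 6.16 FPKM in control and 406 ± 15.5 with CMR.

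The CMR libraries varied more than the control libraries in several of these genes. The SD of SURF4 was 54.1 CPM with CMR and 0.556 in control, that of KDELR3 10.2 and 0.101, and that of LMAN1 75.7 and 5.92. CMR replicate 1 was the lowest of its group for KDELR3, LMAN1, MCFD2 and SURF4 and the highest for KDELR1 and LMAN2. For KDELR2 CMR replicates 1 and 2 were nearly equal, at 546 and 547 CPM. With 3 libraries this spread was not tested.

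Genes of the surrounding pathway were read from lists chosen with earlier results of these data known. Their counts stand beside 20.5% higher and 18.1% lower among all tested genes, or 32.5% and 24.1% among those averaging 5 FPKM or more, and a median log2 fold change of -0.01. In the list of COPI retrieval and arrival at the ER, which holds the ARF GTPases and their regulators, the tethers and the SNAREs that receive retrieved vesicles, 17 of 23 rose, none fell and 6 were not called. The median log2 fold change was 0.92. The largest changes were in the small GTPase gene ARF4 (7.37-fold higher), the SNARE gene SEC22B (4.69-fold) and the SNARE gene BET1 (3.73-fold). In the list of ER exit sites and other cargo receptors 11 of 24 tested members rose, 4 fell and 9 were not called, with a median of 0.27. The number that fell is near the share of all tested genes. Most of the fallen genes were near the floor, at group means of 1.03 FPKM or less. YIPF5, a membrane protein of the early Golgi, was 5.59-fold higher, and the large cargo receptor genes MIA2 and MIA3 4.01-fold and 3.40-fold higher. LMAN1L, a relative of LMAN1 on that list, had no count in any library.

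Partners of KDEL receptor signalling and clustering rose in 7 of 13, fell in 1 and were not called in 5, with a median of 0.49. For these and for the clients below, the shares of all tested genes are again 20.5% higher and 18.1% lower. ACBD3, a Golgi scaffold gene, was 4.23-fold higher, the protein kinase A subunit gene PRKACB 2.73-fold and the p24 cargo receptor gene TMED2 2.65-fold. Of 14 proteins known as clients of these receptors, 9 were tested, of which 3 rose, 1 fell and 5 were not called, with a median of 0.42. The number of clients that rose, out of all tested clients, is near the share among genes averaging 5 FPKM or more. Several tested clients lay far below 5 FPKM in both groups, so the sets differ in expression level. NUCB2, a calcium-binding secretory protein gene, was 4.33-fold higher, the lysosomal protease gene CTSD 1.71-fold higher and the protease gene CTSC 2.05-fold lower. CTSZ, a known client of LMAN1, had a log2 fold change of -0.25 and was not called.

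**Figure D5:**
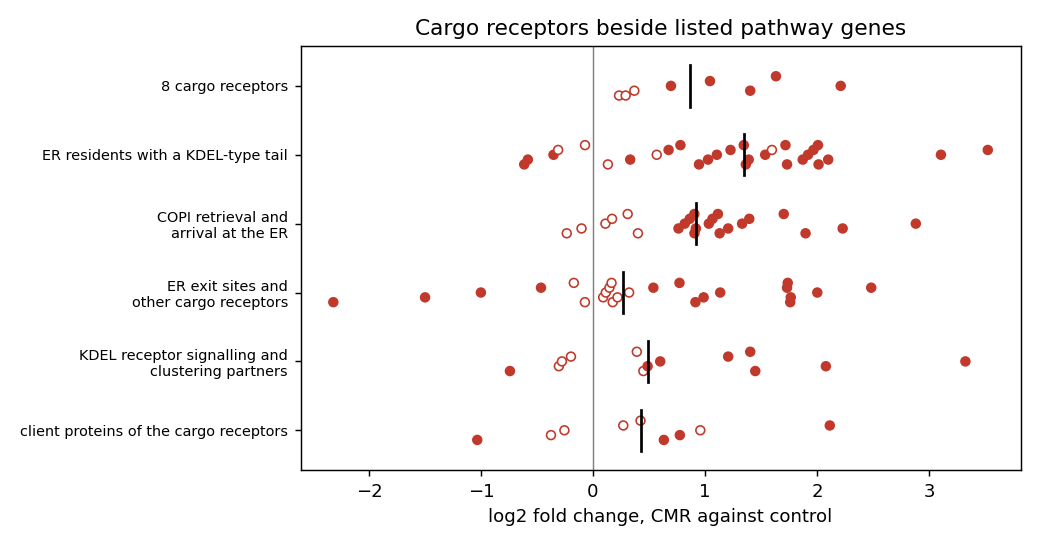
Log2 fold change (CMR against control) of the 8 receptor genes and of each tested gene of the 5 pathway lists; filled points passed the adjusted threshold and black lines are medians. The receptors range from 0.23 to 2.21, beside residents that range from -0.61 to 3.52.

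Genes with the most similar profile were sought among 6469 other tested genes averaging 5 FPKM or more, by the root mean square distance of centred log2 CPM over the 6 libraries. The nearest to KDELR2 were the seryl-tRNA synthetase gene SARS (distance 0.03) and TXNDC11 (0.03). The nearest to KDELR3 was APOL2 (0.04), the nearest to LMAN1 TMEM184C (0.03) and DDX18 (0.04), and the nearest to MCFD2 OSER1 (0.06) and the COPI coat gene COPA (0.07). For SURF4 they were PARP14 and ATP6V1E1 (0.08 each), for KDELR1 TALDO1 (0.03) and EIF3D (0.04), for LMAN2 TXN (0.02) and SPAG7 (0.04), and for LMAN2L PRAF2 (0.09) and CDC37 (0.10). Since the distance uses the same 6 libraries, a similar difference between the groups is fixed by this choice.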

How the data were processed

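The deposited table gives 6 count columns and 6 FPKM columns, 1 of each per library, per the file headers. The deposited counts are whole numbers without normalization; the deposited FPKM values are relative to gene length and library size. The length implied by count and FPKM was the same for a gene in every library to within 0.729% (from 2272 bases for KDELR3 to 7243 for LMAN1), so FPKM levels are per a fixed gene length and do not follow isoforms. StringTie 1.3.0, HISAT2 2.0, Bowtie 0.12.2 and a mouse build, mm8, are named in the submitters' processing notes; roles, strandedness and annotation are not stated in the sources used. Gene identifiers are human; the members' coordinates differ by at most 697 bases from GENCODE release 29 (2 of 8 identical) and were read as GRCh38. Shared exon bases were counted in the basic annotation of GENCODE release 29. It gives 2884, 1899 and 4812 exon bases for KDELR2, KDELR3 and MCFD2. The lengths implied by count and FPKM were larger, at least 4659, 2272 and 7108 bases. The shared percentages may therefore not hold for the gene models that were counted. Columns without a sample numbered 0.

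Counts were tested with edgeR 4.0.16 in R 4.3.3: filterByExpr (minimum count 10, minimum total 15), TMM scaling, a quasi-likelihood test of CMR against control without a block, with p-values adjusted by Benjamini-Hochberg across 19200 genes (31368 had a count). The fit was tested on simulated data. CPM used the same factors. Pairs of members were compared by an exact permutation test over libraries. The members and gene lists were chosen with earlier results of these data known. Of each pathway list, the 3 called genes with the largest change and at least 5 FPKM in the higher group are named, and of the residents the 4 largest rises and all falls; CTSZ and LMAN1L were named after their values were seen. The result of 1 listed client gene is not reported here. Protein sequences were not used here, so the residents' list is hand-written. Alternatives were DESeq2 1.42.0, limma 3.58.1 on log2(FPKM + 1), log2(FPKM + 0.1), log2(TPM + 1) and voom values, other scalings and filters, the replicate number as a block, and leaving out each library. Figures were drawn with matplotlib 3.10.9.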

Additional observations from a re-analysis of the deposited data

How the results depend on the processing

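The 5 called members were called in all 17 alternatives, and none was called lower in any. Over these, log2 fold changes ranged from 1.92 to 2.32 for KDELR3, 1.27 to 1.42 for KDELR2, 1.50 to 1.73 for MCFD2, 0.91 to 1.18 for LMAN1 and 0.53 to 0.78 for SURF4. LMAN2 was called with DESeq2 (adjusted p = 0.0485), with limma on log2(TPM + 1) (0.0431) and without CMR replicate 3 (0.0316), over a range of adjusted p from 0.0316 to 0.285; KDELR1 and LMAN2L were called in none. Leaving out 1 library each, 5 to 6 members were higher, and 3154 to 3977 genes higher and 2506 to 3734 lower. Upper-quartile scaling shifted all genes, to a median log2 fold change of -0.14, and gave 3250 genes higher and 4324 lower; library totals without a composition factor gave 3551 and 3903, limma on log2(FPKM + 1) 3105 and 3347, and on log2(FPKM + 0.1) 3080 and 3292. The counts of risen list genes stayed within 1.5 times the reported ones. Counts of fallen list genes are small and moved more. With upper-quartile scaling 1 COPI list gene, 2 clients and 3 signalling partners were lower; with limma on log2(FPKM + 1) these were 1, 2 and 3, and 1 exit site gene; with limma on log2(FPKM + 0.1) 1 COPI list gene, 3 partners and 1 exit site gene; with limma on log2(TPM + 1) 1 exit site gene; with a filter at a mean of 1 FPKM 1 exit site gene and 2 partners; without a composition factor 2 partners; and with no filter 0 partners. The limma settings on FPKM and TPM values also used the filter at a mean of 1 FPKM. Filters leave fewer genes to test. Otherwise the cause was not tested. Leaving out 1 library each, the lower counts ranged from 0 to 1 for the COPI list, 1 to 2 for clients, 0 to 1 for partners and 1 to 4 for residents. The residents had 1 lower without control replicate 1 or 2, and the partners 0 without CMR replicate 2 or any control replicate. The difference of LMAN2L over LMAN2 ranged from -0.22 (without CMR replicate 3) to 0.22 and was -0.05 without control replicate 3. From 100 bases before to 50 after the start, CCACG was found in 3 of the 7 matched members in place of 5. For MCFD2 that match was at starts whose bases are not shown.

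Whether the replicate numbers pair the libraries was not tested. Deviations of same-numbered libraries from their group means correlated with r = 0.03, 0.04 and 0.05, and each library correlated best with its own number. For differently numbered libraries r ran from -0.03 to -0.01. With the replicate number as a block, 3582 genes were higher and 3155 lower, with 5 members higher and 0 lower, and no call of a member changed. The planned reading of C-terminal tails from protein sequences was not run. The lowest count of any member in a library was 581 (KDELR3, control replicate 2); depth was not tested as a limit for the uncalled members.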
